A study of Homo sapiens with 14 samples.

Results

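CDKN1A, DINOL and PANDAR form a gene cluster on human chromosome 6 that is known for its induction by the transcription factor p53. They were taken by symbol from a table of 28159 counting windows, 1 per gene, of which 3 belong to the cluster. In every one of the 3 windows, RNA polymerase II phosphorylated at Ser5 stood higher in each library from cells given Nutlin3a than in each library from cells given DMSO, as in 4.76% of the 25901 tested windows. The CDKN1A window was 2.62-fold higher with Nutlin3a than with DMSO (95% interval 1.83 to 3.75), and the DINOL window, which shares most of its bases, was 2.48-fold higher (1.76 to 3.51). The PANDAR window, which lies apart from both, was 2.87-fold higher at a far lower level (1.21 to 6.78). With 4 to 27 counts per library, its signal was 0.162 to 0.648 of that in matched chromatin sequenced without antibody. The 95% counting interval of this ratio included 1 in 4 of the 6 libraries. By edgeR's quasi-likelihood test without replicate number in the fit, 0 of the 3 passed an adjusted p of 0.05, as did 0.00772% of all tested windows. With replicate number in the fit, CDKN1A and DINOL passed, among 39 windows called higher.

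Polymerase takes the Ser5-phosphorylated form as it starts to transcribe. It was measured by ChIP-seq (immunoprecipitation of crosslinked chromatin, then sequencing) with the antibody 3E8 in HCT116 cells, a human colorectal carcinoma line labelled wild type. All cells were electroporated, with a bivalent stapled peptide at 10 µM or without it, and were split into medium with 10 µM Nutlin3a or with 0.1% DMSO, the solvent, for 3 h. Cells given peptide received a further 200 nM in the medium, and the labels name water as its counterpart in the other cells. Nutlin3a blocks the binding of MDM2, the ligase that marks p53 for destruction, and so raises the amount of p53, and the series' design text calls the peptide inhibitory. There was 1 ChIP library for Nutlin3a with peptide and 1 for DMSO with peptide, both numbered replicate 2, and there were 2 each for Nutlin3a and DMSO without peptide. Each of the 4 conditions had 2 inputs, which are sheared chromatin sequenced without antibody. The labels do not say whether replicates are separate cultures, so p-values may measure only technical spread.

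The protein encoded by CDKN1A, p21, binds cyclin-dependent kinases and the replication clamp PCNA and stops the cell cycle, and CDKN1A is a standard example of a gene that p53 switches on. DINOL is a long noncoding RNA that starts next to the CDKN1A start site, runs the other way and binds and stabilises p53. PANDAR, named for its position antisense to the CDKN1A promoter, is a noncoding RNA induced by DNA damage that binds the transcription factor NF-YA. The p53 sites known to drive the cluster lie upstream of CDKN1A, outside the promoter stretches shown here.

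The windows do not separate these genes equally well. In hg38, the CDKN1A window (transcript NM_000389) spanned chr6:36678414-36679413 and the DINOL window (NR_144384) spanned chr6:36678260-36679259. They shared 846 of their 1000 bases, or 84.6%, and each had 154 bases of its own. The shared stretch ran from 300 bases upstream to 545 bases downstream of the CDKN1A start site. Reads there count for both genes, and the table cannot divide them. The 2 start sites, taken from the promoter table, lay 155 bases apart. The DINOL window held 300 bases of the DINOL gene and 700 bases upstream of its start, because windows were laid along the genome without regard to strand. Of 12460 plus-strand genes with a listed start, 7161 (57.5%) had a window beginning 300 bases to the left of it, and of 11942 minus-strand genes 7249 (60.7%) had one beginning 299 bases to the left. The DINOL window therefore covered the first bases of the CDKN1A transcript NM_000389 and only the first 300 bases of DINOL itself.

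The PANDAR window (NR_109836) spanned chr6:36674827-36675826 and overlapped neither of the others, with gaps of 2587 bases to the CDKN1A window and 2433 bases to the DINOL window. It lay 2888 to 3887 bases upstream of the CDKN1A start site used here and held 300 bases of the PANDAR gene and 700 bases beside it. It ended 637 bases before the first base that RefSeq assigns to any CDKN1A transcript. No other window in the table overlapped a member's window.

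**Figure D1:**
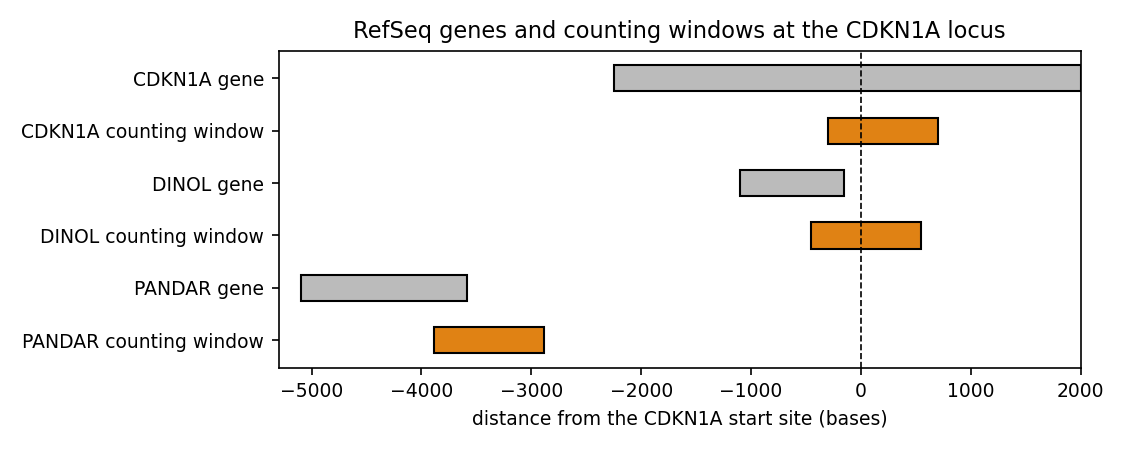
Positions of the RefSeq genes (grey) and the 1000-base counting windows (orange) of CDKN1A, DINOL and PANDAR, as distance in bases from the CDKN1A start site (dashed line), with the CDKN1A gene running on past the right edge. The CDKN1A and DINOL windows share 846 bases, and the PANDAR window stands 2587 bases to the left of the CDKN1A window.

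The promoters of CDKN1A and DINOL are shown because both start sites lie in the stretch that the 2 windows share. The RefSeq promoter table (GRCh38.p14) held 2 of the 3 members, each as 300 bases from 250 bases before the start to 50 bases after it. The CDKN1A promoter is chr6:36678464-36678763 on the plus strand and the DINOL promoter is chr6:36678510-36678809 on the minus strand. Both are printed 5′ to 3′, with capitals at each match to GGGCGG on either strand (CCGCCC as read on the DINOL strand), a core that the factor SP1 binds, and at the letters TATA.
CDKN1A: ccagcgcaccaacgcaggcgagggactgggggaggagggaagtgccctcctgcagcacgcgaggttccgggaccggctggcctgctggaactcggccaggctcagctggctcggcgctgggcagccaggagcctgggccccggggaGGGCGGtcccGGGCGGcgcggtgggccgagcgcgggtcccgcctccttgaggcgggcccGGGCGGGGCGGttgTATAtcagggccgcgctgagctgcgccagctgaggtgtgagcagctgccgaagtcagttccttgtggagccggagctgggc
DINOL: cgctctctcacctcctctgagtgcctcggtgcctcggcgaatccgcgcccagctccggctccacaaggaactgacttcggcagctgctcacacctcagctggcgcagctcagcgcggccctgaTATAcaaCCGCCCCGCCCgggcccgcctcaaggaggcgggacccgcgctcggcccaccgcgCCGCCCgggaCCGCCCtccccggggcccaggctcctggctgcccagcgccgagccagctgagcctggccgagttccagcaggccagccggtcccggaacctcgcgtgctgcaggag
These promoters were 254 bases of the same DNA read from opposite strands. Each held 4 matches to GGGCGG, at the same 4 places, with the first base at −104, −94, −45 and −40 from the CDKN1A start, and the last pair share a base. Of 35116 promoters in the table, 45.0% held at least 1 such match and 9.06% held at least 4. The letters TATA stood once, at −31 from the CDKN1A start and at −127 from the DINOL start, and 29.2% of promoters held them on either strand. CAGCTG, the letters bound by the repressor AP4, occurred 3 times in each promoter, and 0.205% of promoters held at least 3 of them. Neither promoter matched the p53 half-site, which 6.63% of promoters did. GC content was 74.3% for CDKN1A and 73.7% for DINOL. These matches describe letters in this stretch and were not tied to the ChIP signal.

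The table held 1290223 to 2240951 counts per ChIP library and 161719 to 359276 per input. Values below are CPM, the counts after division by library size (TMM-scaled for ChIP), and each is an average over the cells, so more cells with polymerase and more polymerase per cell cannot be told apart. Replicate 1 stood apart. The Spearman correlation between Nutlin3a replicates across windows was 0.880 and that between DMSO replicates was 0.932, against 0.961 to 0.970 among the replicate 2 libraries. The 10 markers of colon epithelium summed to 1018 to 1238 CPM in the 3 Nutlin3a ChIP libraries, against 1108 to 1389 CPM in the 3 DMSO ones. Those of blood cells summed to 37.2 to 71.1 CPM with Nutlin3a and 36.2 to 44.3 CPM with DMSO, and those of mesenchyme to 46.8 to 68.8 CPM with Nutlin3a and 28.0 to 63.3 CPM with DMSO, with no marker at 0 in all ChIP libraries. The 8 genes chosen as silent in this tissue, 7 of them tested, summed to 78.1 to 93.6 CPM with Nutlin3a and 82.3 to 87.6 CPM with DMSO. Much of each sum came from TNNT2, at 41.0 to 52.2 CPM with Nutlin3a and 33.6 to 55.9 CPM with DMSO. None of the other 6 tested genes was above 15.3 CPM. For Nutlin3a against DMSO without peptide, 2 of 10 colon, 5 of 7 blood, 7 of 7 mesenchymal and 4 of 7 silent tissue windows had a positive log2 fold change (10, 6, 7 and 7 by the authors' constants). Over all tested windows the share with a positive value was 54.1%, and 94.9% by the authors' constants. Of these markers 0 passed by edgeR, DESeq2 or limma-voom, with 1 at an unadjusted p under 0.05. The highest blood and mesenchymal sums, 71.1 and 68.8 CPM, were those of Nutlin3a replicate 1. Without that library the median of the 7 blood markers was −0.25, against 0.27 with it. That of the mesenchymal markers was 0.71 (5 tested, 5 positive), against 0.87 with it. The silent tissue genes were at 0.32 (6 of 7 positive), against 0.25, and the colon markers at −0.17 in both fits. The part of this library's background in the results was not tested, and values without it are given beside the members' tests and for the lists.

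The CDKN1A window held 326 counts (249 CPM) in Nutlin3a replicate 1, 595 (357 CPM) in replicate 2 and 1033 (461 CPM) with peptide. In DMSO it held 221 counts (107 CPM) in replicate 1, 243 (125 CPM) in replicate 2 and 205 (115 CPM) with peptide. The lowest Nutlin3a library was well above the highest DMSO library, and the spread was wide among Nutlin3a libraries and narrow among DMSO libraries. Among the 28159 windows of a library, CDKN1A ranked 167th, 79th and 58th in these Nutlin3a libraries, against 2040th, 1246th and 1398th in these DMSO libraries. By rank it was near the top of the table with Nutlin3a, and in each DMSO library at least 92.7% of windows were below it.

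The DINOL window held 311 counts (238 CPM) in Nutlin3a replicate 1, 532 (319 CPM) in replicate 2 and 933 (416 CPM) with peptide. In DMSO it held 221 counts (107 CPM) in replicate 1, 229 (118 CPM) in replicate 2 and 195 (109 CPM) with peptide. The order of the libraries with Nutlin3a was that of CDKN1A, and the groups again did not overlap. Since 846 bases are common to both windows, these counts are largely the same reads and are not a separate measurement.

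The PANDAR window held 24 counts (18.3 CPM) in Nutlin3a replicate 1, 20 (12.0 CPM) in replicate 2 and 27 (12.0 CPM) with peptide. In DMSO it held 13 counts (6.27 CPM) in replicate 1, 8 (4.12 CPM) in replicate 2 and 4 (2.24 CPM) with peptide. The groups did not overlap here either, but each value rests on few reads, and the exact Poisson 95% interval of the 4 counts ran from 1.09 to 10.2. Counting intervals cover counting error only. The highest Nutlin3a value and the highest DMSO value both came from replicate 1. PANDAR ranked 13558th to 15454th of the 28159 windows in the Nutlin3a libraries and 17564th to 23575th in the DMSO libraries, the middle and lower part of the table.

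**Figure D2:**
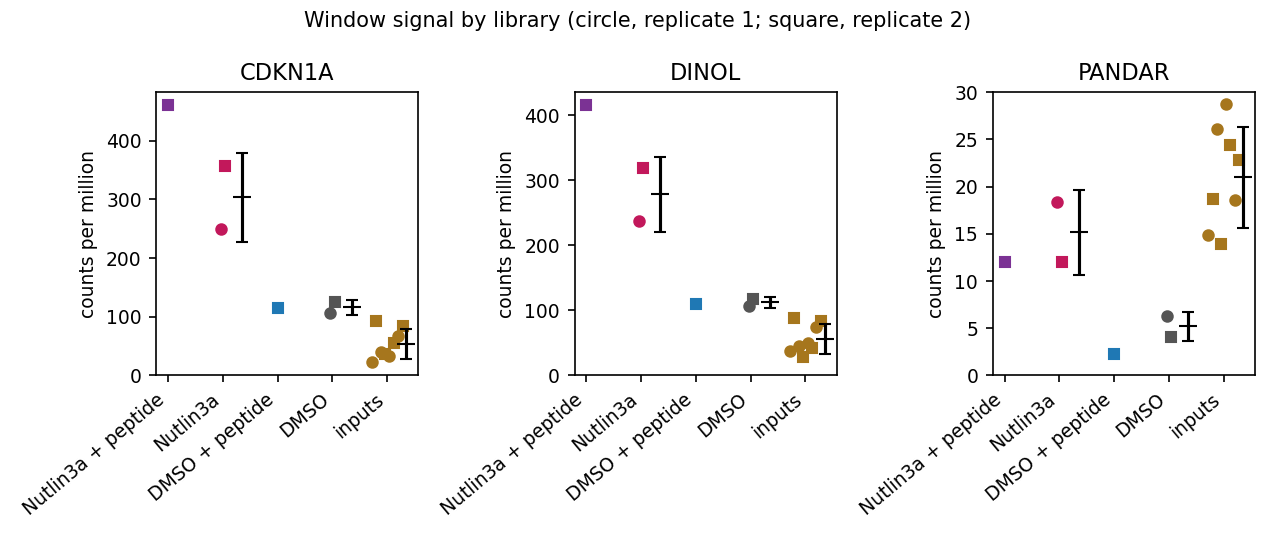
Window signal in CPM for CDKN1A, DINOL and PANDAR, one point per library, with circles for replicate 1 and squares for replicate 2, and black bars at the mean ± SD of groups with more than 1 library (ChIP scaled by TMM, the 8 inputs by total counts). At CDKN1A the Nutlin3a libraries run from 249 to 461 CPM and the DMSO libraries from 107 to 125 CPM, and at PANDAR the inputs, at 13.9 to 28.7 CPM, reach above both.

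Nutlin3a against DMSO without peptide asked how polymerase at the cluster differs once p53 is stabilised. CDKN1A averaged 303 ± 76.1 CPM with Nutlin3a and 116 ± 13.2 CPM with DMSO (SD, n = 2 each), a log2 fold change of 1.39 ± 0.25 (SE). DINOL averaged 278 ± 57.5 CPM with Nutlin3a and 112 ± 8.11 CPM with DMSO, a log2 fold change of 1.31 ± 0.24. PANDAR averaged 15.2 ± 4.49 CPM with Nutlin3a and 5.20 ± 1.52 CPM with DMSO, a log2 fold change of 1.52 ± 0.59. CDKN1A and DINOL are largely the same reads, so their likeness in size follows from the windows. PANDAR, with the fewest counts, had the largest error, and its interval of 1.21 to 6.78-fold is too wide to show likeness.

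In edgeR's quasi-likelihood test, adjusted by Benjamini-Hochberg over the 25901 tested windows, the adjusted p was 0.109 for CDKN1A, 0.120 for DINOL and 0.982 for PANDAR. That test called 2 of all windows. At an unadjusted p under 0.05 it marked 2.32% of windows and all 3 members. By p, CDKN1A was 7th, DINOL 8th and PANDAR 139th of the tested windows. The call depended on the tool and on the design. With replicate number as a block, edgeR's quasi-likelihood test gave an adjusted p of 1.09e-09 for CDKN1A, 9.44e-09 for DINOL and 0.514 for PANDAR. That fit called 39 windows higher. In the design of group means only, DESeq2 called 8 windows higher, CDKN1A (adjusted p = 0.000175) and DINOL (0.000175) among them. From limma-voom there were 4, with both again (0.0189 for each). Without Nutlin3a replicate 1 the log2 fold change was 1.62 for CDKN1A (edgeR adjusted p = 1.67e-09), 1.50 for DINOL (3.40e-08) and 1.19 for PANDAR (1.0), so that the CDKN1A and DINOL calls were made and the PANDAR value was lower. In that fit the lone Nutlin3a library without peptide is assumed to vary like the DMSO pair, the only replicates left.

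Taken pair by pair, the members were higher with Nutlin3a in each of the 3 pairs of libraries with the same replicate number and peptide state. The CDKN1A ratio was 2.34 in replicate 1 (exact 95% counting interval 1.97 to 2.79), 2.85 in replicate 2 (2.45 to 3.32) and 4.01 with peptide (3.45 to 4.69). The DINOL ratio was 2.23 in replicate 1, 2.70 in replicate 2 and 3.81 with peptide. The PANDAR ratio was 2.93 in replicate 1 (1.43 to 6.26), 2.91 in replicate 2 (1.23 to 7.64) and 5.38 with peptide (1.87 to 21.1). In replicate 1, 87.7% of tested windows had a lower log2 ratio than CDKN1A and 91.0% a lower one than PANDAR. In replicate 2 these shares were 98.4% and 97.4%, and with peptide they were 99.8% for both. The ratios over all windows were spread more widely in replicate 1, so a like ratio stood out less there.

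**Figure D3:**
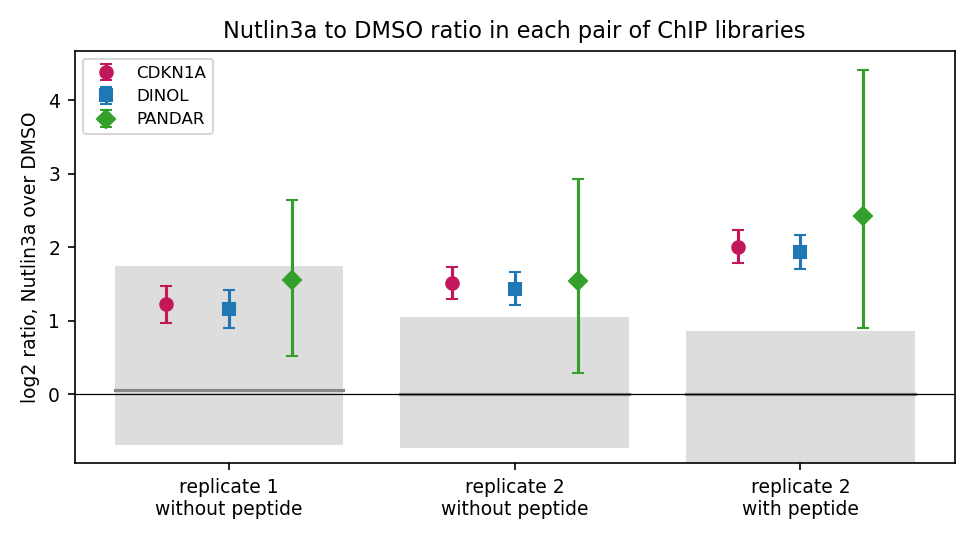
Log2 ratio of Nutlin3a to DMSO CPM in the 3 pairs of ChIP libraries for CDKN1A, DINOL and PANDAR, with exact 95% counting intervals, over grey bands from the 5th to the 95th percentile of all 25901 tested windows and their median (grey line). CDKN1A lies within the band in replicate 1, where the band reaches 1.75, and above it in replicate 2, where the band reaches 1.05 without peptide and 0.86 with it.

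With peptide, Nutlin3a against DMSO was 1 library against 1 and was not tested. The log2 ratio, with a prior count of 2, was 1.99 for CDKN1A, 1.92 for DINOL and 1.98 for PANDAR, and all 3 were past a log2 ratio of 1 in the direction of Nutlin3a, as were 3.51% of all tested windows. CDKN1A was 49th, PANDAR 50th and DINOL 76th of 25901 windows by this ratio.

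A further contrast asked whether the peptide altered the Nutlin3a response, as the response with peptide minus that without it. It was 0.62 in log2 for CDKN1A (95% interval −0.27 to 1.50), 0.62 for DINOL (−0.23 to 1.47) and 0.87 for PANDAR (−1.46 to 3.20), in each case a larger response with peptide. None of the 3 members passed by edgeR's quasi-likelihood test (adjusted p = 1.0 for each), where 0% of all windows did, nor did any window by DESeq2 or limma-voom. At an unadjusted p under 0.05 there were 0 members and 1.05% of windows. As a fold, the interval for CDKN1A allowed the response with peptide to be 0.831 to 2.82 times that without it. The lone peptide libraries are assumed to vary like the pairs. Both are replicate 2, while the side without peptide takes in replicate 1, so peptide and replicate are partly confounded. Within replicate 2 the log2 ratio of Nutlin3a to DMSO at CDKN1A was 1.99 with peptide and 1.50 without it. The same ratios were 1.92 and 1.43 for DINOL, and 1.98 and 1.33 for PANDAR. Without Nutlin3a replicate 1 the difference was 0.38 for CDKN1A, 0.42 for DINOL and 1.20 for PANDAR.

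The peptide was also set against no peptide under each treatment. With Nutlin3a, CDKN1A held 461 CPM with peptide and 303 ± 76.1 CPM without it (SD, n = 2), a log2 fold change of 0.60 ± 0.28, and DINOL was at 0.58 ± 0.27. The PANDAR value was −0.32 ± 0.67, with 12.0 CPM with peptide and 15.2 ± 4.49 CPM without it. None passed by edgeR's quasi-likelihood test (adjusted p = 1.0 for each), where 0% of all windows did, nor did any window by the other tools. At an unadjusted p under 0.05 there were 2 members, CDKN1A and DINOL, which are largely the same reads, and 2.44% of windows. Within replicate 2, where both libraries are of the same number, the ratio was 1.29 for CDKN1A, 1.30 for DINOL and 1.00 for PANDAR, and 81.6% of windows were below CDKN1A. Without Nutlin3a replicate 1 the log2 fold change was 0.36 for CDKN1A, 0.38 for DINOL and −0.00095 for PANDAR.

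With DMSO, the peptide library and the libraries without peptide were close at CDKN1A, with 115 CPM and 116 ± 13.2 CPM (SD, n = 2), a log2 fold change of −0.01 (−0.65 to 0.63). DINOL was at −0.04 (−0.66 to 0.58), and the sign of both values turned with total counts as the scaling. PANDAR held 2.24 CPM with peptide and 5.20 ± 1.52 CPM without it, a log2 fold change of −1.19 (−3.07 to 0.68) that rests on 4 counts with peptide. None passed by edgeR's quasi-likelihood test (adjusted p = 1.0 for each), where 0% of all windows did, nor did any window by the other tools. At an unadjusted p under 0.05 there were 0 members and 1.52% of windows. As a fold, the interval for CDKN1A ran from 0.636 to 1.54.

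The inputs gave the background of the same windows. CDKN1A averaged 59.8 ± 21.5 CPM in the 4 Nutlin3a inputs and 47.7 ± 31.2 CPM in the 4 DMSO inputs (SD), from 6 to 22 counts per library. DINOL averaged 62.4 ± 19.6 CPM in the Nutlin3a inputs and 49.8 ± 26.8 CPM in the DMSO inputs. PANDAR averaged 23.6 ± 4.19 CPM in the Nutlin3a inputs and 18.4 ± 5.54 CPM in the DMSO inputs, from 3 to 8 counts per library. The groups of inputs overlapped for all 3 members. The log2 fold change between inputs was 0.38 ± 0.47 for CDKN1A and 0.40 ± 0.44 for DINOL by edgeR's quasi-likelihood test (adjusted p = 0.997 for both). In that comparison, over 10485 windows, 0% of windows passed the threshold and 2.98% had an unadjusted p under 0.05, while 0 of the 2 members did. With 1 input left out the value ran from 0.13 (without the Nutlin3a input 2 with peptide) to 1.00 (without DMSO input 2) for CDKN1A, and from 0.095 (without the DMSO input 2 with peptide) to 0.83 (without DMSO input 2) for DINOL, and none passed. PANDAR did not pass the filter on low counts and was at 0.36 ± 0.78 with no filter.

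ChIP signal was then set against input, each as a share of its own library's counts, which ranks windows and gives no absolute enrichment. Averaged over the 4 conditions, CDKN1A was 4.06-fold higher in ChIP than in input (2.86 to 5.76) and DINOL 3.62-fold higher (2.61 to 5.02). Both passed by edgeR's quasi-likelihood test (adjusted p = 2.40e-07 for CDKN1A and 3.13e-07 for DINOL), as did 17.3% of windows in this direction. PANDAR, tested with no filter, was lower in ChIP, at 0.333-fold of input (0.159 to 0.696, edgeR adjusted p = 0.0147), and 20.3% of the 28159 windows of that fit were called lower in ChIP. Without the Nutlin3a replicate 1 ChIP library the log2 fold change was 2.08 for CDKN1A, 1.90 for DINOL and, with no filter, −1.67 for PANDAR (adjusted p = 0.0285).

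Library by library, the ratio of ChIP to the matched input at CDKN1A was 7.70 in Nutlin3a replicate 1, 6.63 in replicate 2 and 5.52 with peptide. In DMSO it was 4.53 in replicate 1, 1.33 in replicate 2 and 3.19 with peptide. At PANDAR the ratio was 0.648, 0.501 and 0.529 in the same order with Nutlin3a, and 0.399, 0.220 and 0.162 with DMSO. All 6 PANDAR ratios were below 1 and all 6 CDKN1A ratios above it. For both windows the Nutlin3a ratios were above the DMSO ratios, but some of their exact 95% counting intervals overlapped. At CDKN1A the interval was 3.62 to 8.84 with Nutlin3a and peptide and 2.05 to 12.5 in DMSO replicate 1. The share of all windows with such an order was not counted. For PANDAR the exact 95% counting interval of the ratio included 1 in 4 of the 6 libraries, with upper limits of 1.57 to 2.02 in the Nutlin3a libraries and 1.68 in DMSO replicate 1. It lay below 1 in DMSO replicate 2 (0.0589 to 0.997) and in DMSO with peptide (0.0321 to 0.752). For CDKN1A the interval lay above 1 in 5 of the 6 libraries and included 1 in DMSO replicate 2 (0.845 to 2.22).

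**Figure D4:**
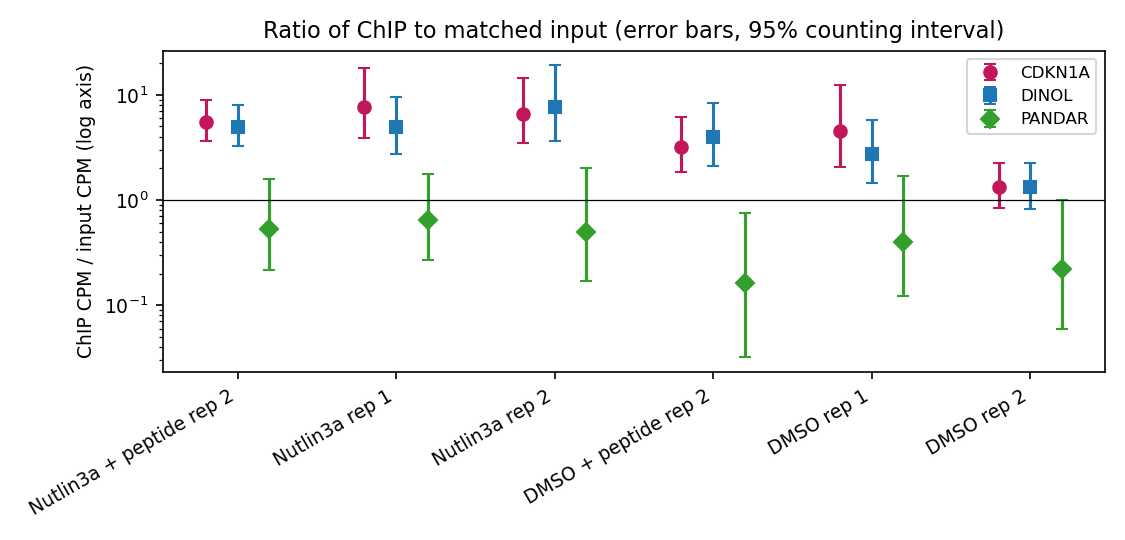
Ratio of ChIP to matched input CPM (log axis) for CDKN1A, DINOL and PANDAR in the 6 ChIP libraries, with exact 95% counting intervals and a line at 1. The PANDAR points lie below 1 in all 6 libraries, at 0.162 to 0.648, with intervals that include 1 in 4 of them. Those of CDKN1A lie above it, at 1.33 to 7.70, with an interval that includes 1 in DMSO replicate 2.

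Ratios between members within a library need no scaling between libraries, and 3 of them were compared between the 3 Nutlin3a and the 3 DMSO ChIP libraries, peptide libraries included. The log2 ratio of CDKN1A to DINOL was 0.13 ± 0.05 with Nutlin3a and 0.05 ± 0.05 with DMSO (SD, n = 3 each), two-sided exact permutation p = 0.3. That of CDKN1A to PANDAR was 4.53 ± 0.78 with Nutlin3a and 4.54 ± 0.61 with DMSO (exact permutation p = 1). That of DINOL to PANDAR was 4.40 ± 0.73 with Nutlin3a and 4.49 ± 0.57 with DMSO (exact permutation p = 0.9). Adjusted over the 3 ratios these p-values were 0.9, 1 and 1, and 0.1 is the smallest that 3 against 3 libraries can give. Without Nutlin3a replicate 1 the differences in log2 were 0.10, 0.42 and 0.32.

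The difference between the CDKN1A and DINOL counts equals the reads at the downstream end of the shared pair (546 to 699 bases past the CDKN1A start) minus those at the upstream end (−454 to −301 from it). This measure was chosen after the values were seen. It was 15 counts in Nutlin3a replicate 1, 63 in replicate 2 and 100 with peptide, against 0 in DMSO replicate 1, 14 in replicate 2 and 10 with peptide. The downstream end held the more reads in each ChIP library but DMSO replicate 1, where the 2 ends were equal. As CPM the difference was 31.3 ± 17.5 with Nutlin3a and 4.27 ± 3.79 with DMSO (SD, n = 3 each), and the 2 ranges did not overlap, with a two-sided exact permutation p of 0.1, the smallest possible. As a share of the CDKN1A count it was 8.29% ± 3.23 with Nutlin3a and 3.55% ± 3.10 with DMSO (exact permutation p = 0.3), with ranges that overlapped. Within pairs this share was 4.60 percentage points higher with Nutlin3a in replicate 1, 4.83 in replicate 2 and 4.80 with peptide, a description with no test. Without Nutlin3a replicate 1 the Nutlin3a means were 41.2 CPM and 10.1%. In the 8 inputs the difference ran from −4 to 3 counts.

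Within 500 kb of the CDKN1A window the table held 17 other windows, all of them tested. Of these 12 had a positive and 5 a negative log2 fold change for Nutlin3a against DMSO without peptide. Their median was 0.05 against 0.04 over all tested windows, of which 54.1% were positive. None passed by edgeR's quasi-likelihood test, nor by DESeq2 or limma-voom, and 1 had an unadjusted p under 0.05, PNPLA1, a lipid enzyme gene, at −1.48 ± 0.61. In 4 of the 17, and in 14.6% of all tested windows, the log2 ratio was positive in each of the 3 pairs of libraries, as it was for the 3 members. The median without Nutlin3a replicate 1 was 0.02, with 9 of the 17 positive and none passing.

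The nearest windows on either side were close to 0 or imprecise. SRSF3, which encodes a splicing factor, averaged 154 CPM over the 6 ChIP libraries and was at 0.05 ± 0.23, and the kinase gene STK38 was at 0.05 ± 0.25. MIR3925, a microRNA gene between SRSF3 and the cluster, was at 0.35 ± 0.64 from 7.59 CPM. On the other side were RAB44, a Rab family GTPase gene, at −0.22 ± 0.76 from 6.06 CPM, CPNE5, a copine gene, at −0.88 ± 0.60, and PPIL1, a peptidyl-prolyl isomerase gene of the spliceosome, at 0.18 ± 0.27. BNIP5 had the largest value of the 17, 1.67 ± 0.84, with 5.56 CPM and a log2 ratio of −1.34 in the pair with peptide. With the authors' constants as the scaling, 15 of the 17 were positive, as were 94.9% of all windows. Their median was 0.57, against a median of 0.53 over all windows.

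**Figure D5:**
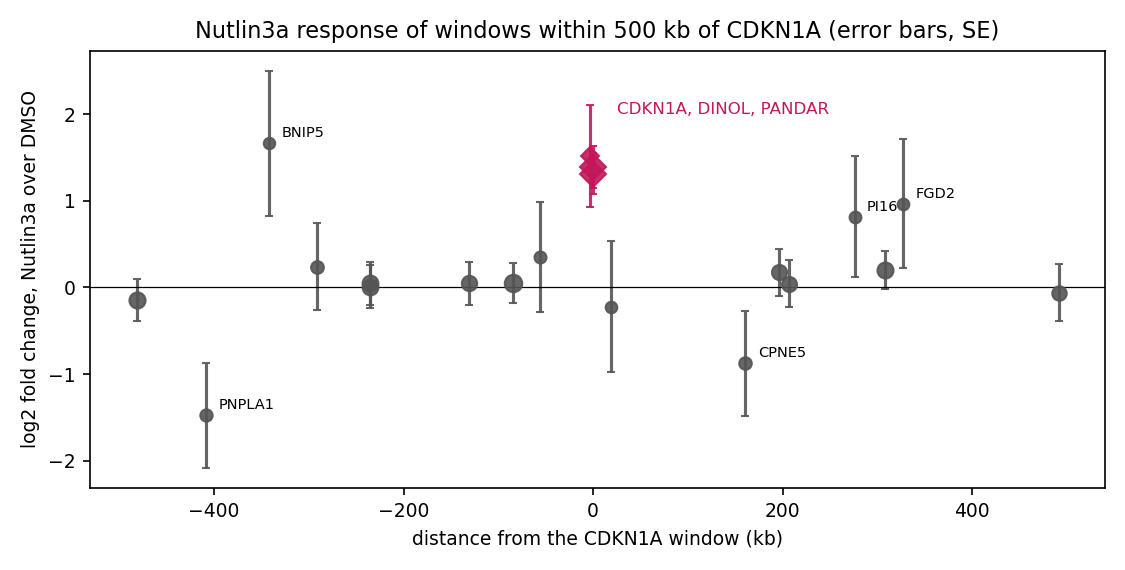
Log2 fold change of Nutlin3a over DMSO without peptide (points, bars ± SE, larger points for higher mean CPM) against distance in kb from the CDKN1A window, for the 20 windows within 500 kb. CDKN1A, DINOL and PANDAR (diamonds) lie at 1.31 to 1.52, and the 17 other windows (circles) have a median of 0.05.

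Other genes of the p21 pathway were read from lists for the same comparison, Nutlin3a against DMSO without peptide. Beside each list, the share of all tested windows with a positive value was 54.1%, and 94.9% by the authors' constants. Among 7 other genes of the CDK inhibitor families and the related CDKN3, 0 passed and 0 had an unadjusted p under 0.05 by edgeR's quasi-likelihood test, and 0 passed by DESeq2 or limma-voom. Their median log2 fold change was −0.15, with 2 positive and 5 negative, and 0.35 by the authors' constants, where all 7 were positive and the median of all windows was 0.53. CDKN1B, which encodes p27, was at −0.15 ± 0.26 and CDKN2C, which encodes p18, at 0.29 ± 0.32. CDKN2A, the locus of p16, was at −0.20 ± 0.26. The values of the 7 ran from −0.28 (CDKN3) to 0.29 (CDKN2C), against 1.39 for CDKN1A.

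The 12 genes of proteins that p21 binds, cyclins, their kinases and PCNA, had a median of −0.35, with 3 positive, and of 0.21 by the authors' constants, with 10 positive. By edgeR 0 passed and 0 had an unadjusted p under 0.05, and 0 passed by the other tools. The smallest p-values were those of CDK4 (−0.53 ± 0.26), CCND1, which encodes cyclin D1 (−0.47 ± 0.25), CDK1 (−0.49 ± 0.27) and CCNE1, which encodes cyclin E1 (−0.65 ± 0.40). PCNA was at 0.22 ± 0.23. Downstream of p21, the list of pocket proteins, E2F factors and the MuvB core held 15 genes. Products of some of them, not of all, hold cell cycle genes off when kinases are inactive. The 15 had a median of −0.09, with 5 positive, and of 0.39 by the authors' constants, with 14 positive. By edgeR 0 passed, 2 had an unadjusted p under 0.05, TFDP1 (−0.57 ± 0.23) and E2F3 (−0.51 ± 0.22), and 0 passed by the other tools.

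Of 14 other p53-induced genes of arrest and feedback, 11 had a positive log2 fold change, with a median of 0.38 against 0.04 over all tested windows. By the authors' constants 14 were positive, as were 94.9% of all tested windows, with a median of 0.84 against 0.53. By edgeR 1 passed, TP53INP1, a p53 cofactor gene (1.57 ± 0.23, adjusted p = 0.0379), and 6 had an unadjusted p under 0.05, all of them positive. Of all tested windows 0.00772% passed and 2.32% had an unadjusted p under 0.05. DESeq2 called 2, TP53INP1 and SESN1, and limma-voom called 1, TP53INP1. In the fit without Nutlin3a replicate 1 the median was 0.52, against −0.01 over all windows of that fit. Those with an unadjusted p under 0.05 included SESN1, a stress-induced inhibitor of growth signalling (1.73 ± 0.30), PHLDA3, an inhibitor of AKT (1.16 ± 0.26), and MDM2 (0.84 ± 0.22). The 11 genes of factors known to act on the CDKN1A promoter had a median of −0.29, with 1 positive, and of 0.14 by the authors' constants, with 10 positive. By edgeR 0 passed, 1 had an unadjusted p under 0.05, SP1 (−0.75 ± 0.28), and 0 passed by the other tools. MYC, a repressor of CDKN1A, was at −0.42 ± 0.24, and KLF6 was at −0.41 ± 0.23. In the other lists the medians without Nutlin3a replicate 1 were −0.06 for the CDK inhibitors and −0.27 for the p21 binding partners. They were −0.14 for the pocket protein, E2F and MuvB genes and −0.29 for the promoter factors.

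The windows most like CDKN1A across the 6 ChIP libraries were found by the Euclidean distance between profiles of log2 CPM, each centred on its own mean, over 12949 windows at or above the median level. DINOL, which shares reads, was at 0.13. The nearest 5 others were GDF15 (0.562), FAS (0.573), TP53INP1 (0.573), SESN1 (0.627) and BBC3 (0.629), where the median distance over all compared windows was 2.17. The GDF15 window overlaps that of MIR3189 and the FAS window that of ACTA2. GDF15, which encodes a stress cytokine, held 113, 121 and 157 CPM with Nutlin3a and 45.3, 47.9 and 60.5 CPM with DMSO, each in the order replicate 1, replicate 2 and with peptide. FAS, a death receptor gene, held 74.2, 93.6 and 94.1 CPM with Nutlin3a and 32.8, 27.8 and 35.3 CPM with DMSO. Both had all Nutlin3a libraries above all DMSO libraries, as CDKN1A and 4.76% of tested windows did. The highest value was with Nutlin3a and peptide, though for FAS it was 94.1 against 93.6 CPM. These windows were chosen for likeness to CDKN1A in these same libraries, so a shared order follows from the choice and is no separate result. BBC3, which encodes the death factor PUMA, had log2 ratios of 1.52, 1.51 and 1.37 in the 3 pairs, against 1.22, 1.50 and 1.99 for CDKN1A. PANDAR was at 1.39, with 52 windows nearer to CDKN1A.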

How the data were processed

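Raw read counts per window were deposited by the authors for 6 ChIP-seq and 8 input libraries of HCT116 cells, on hg38 per the submitters' processing notes. Per the file headers, the authors' table further holds a scaled signal per ChIP library, which equals the counts times 1 constant per library (0.595 to 0.748, and 1.82 for Nutlin3a replicate 1) and entered only as an alternative scaling. Aligner, counting tool, read filters and the origin of the constants are not given in the sources used here. No sample column was left unused, and groups came from titles and treatment labels.

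Windows with low counts were removed with filterByExpr (minimum count 10), which left 25901 of 28159. The test was edgeR's quasi-likelihood test (edgeR 4.0.16, R 4.3.3, legacy=TRUE, TMM factors 0.951 to 1.02), fitted once to all 6 ChIP libraries as 4 group means. The degrees of freedom were 2 residual and 14.7 prior, and the biological coefficient of variation was 26.0%. Inputs were fitted apart with peptide as a covariate, and ChIP against input used total counts. DESeq2 1.42.0, limma 3.58.1 (voom), other scalings, filters and designs, and leaving out each library were alternatives. The main edgeR models for the ChIP groups, the inputs and ChIP against input were tested on simulated data without a replicate effect. For the ChIP groups this covered only Nutlin3a against DMSO without peptide. Other designs and contrasts were not simulated. Counting intervals are exact.

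The members and gene lists were chosen with earlier results of these data known. Genes named were the members, the 3 nearest tested windows on each side, list members past the threshold or up to 4 with the smallest p, and the 5 windows nearest to CDKN1A in profile. Other genes named, among them PCNA, CDKN2A, TNNT2 and BNIP5, were added after their values were seen. Gene names, strands and promoters came from RefSeq tables of GRCh38.p14.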

Additional observations from a re-analysis of the deposited data

How the results depend on the processing

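Counts of 3 to 1033 per window limit the precision, most for PANDAR, and each peptide group had 1 library. Over 15 alternatives the log2 fold change of Nutlin3a over DMSO without peptide stayed positive, from 1.12 to 1.83 for CDKN1A and 1.10 to 1.77 for DINOL, each past the threshold in 7, and from 1.19 to 2.08 for PANDAR over 14, past it in 1. A mean count of at least 50 removes PANDAR. CDKN1A and DINOL passed with total counts (1.46 and 1.38), DESeq2 (1.40 and 1.32), limma-voom (1.37 and 1.30), the replicate block (1.37 and 1.30) and the 3 pairs of libraries as a block (1.59 and 1.51), where PANDAR passed at 1.76. The cause was not tested. The block of 3 pairs estimates 1 response over all 6 ChIP libraries, so it is not the contrast without peptide alone. It takes in the pair with peptide, where the log2 ratio was 1.99 for CDKN1A and 1.98 for PANDAR. Leaving out 1 library gave 1.12 to 1.62 for CDKN1A and 1.10 to 1.50 for DINOL, with calls without Nutlin3a replicate 1 (1.62 and 1.50) or replicate 2 (1.12 and 1.10), where the lone Nutlin3a library is assumed to vary like the DMSO pair, and 1.19 to 1.85 for PANDAR. The replicate numbers were not taken as pairs in the main fit, because the labels state no pairing. Same-numbered deviations had a correlation of 0.454 across windows, with 2 pairs only, and the main fit does not take out spread shared by a replicate number. The replicate block raised the windows called higher to 39.

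Windows called higher numbered 2, against 8 with total counts or DESeq2, 4 with limma-voom, 53 with the 3 pairs as a block, 0 with the authors' constants, a mean count of at least 50, legacy=FALSE or the 4 libraries without peptide, and 0 to 88 with 1 library left out (88 and 0 when DMSO replicate 1 or 2 was left out, 17 and 37 when Nutlin3a replicate 1 or 2 was). Windows called lower numbered 0, against 7 with the 3 pairs as a block, 15 without Nutlin3a replicate 1 and 2 without Nutlin3a replicate 2. For the peptide with DMSO, whose values were near 0, the sign turned with total counts (0.035 for CDKN1A, 0.0087 for DINOL) and a mean count of at least 50 (0.050 and 0.025), and without 1 library the values ran from −0.13 to 0.12 and from −0.11 to 0.043. For the peptide with Nutlin3a, PANDAR was at 0.0026 with the replicate block, against −0.32. With the authors' constants the log2 ratio with peptide was 2.40 for CDKN1A and 2.33 for DINOL. In all, 219 values for the members and their ratios stayed on their side of the threshold or within their spread. Another 15, all for Nutlin3a against DMSO without peptide, passed the threshold where the main fit did not. A further 7 changed sign and 2 moved in size.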
